A study of Mus musculus with 16 samples.

Results

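CTCF sites bound in mouse embryonic stem (ES) cells but not listed in neural progenitor cells were examined as pairs of contact anchors. The loci were cut by the authors into 4 kb bins. A bin counted as ES-only when it overlapped a CTCF region found in one or both ES peak lists and overlapped no peak of the neural progenitor list. All pairs of ES-only bins of the same locus at least 20 kb apart were taken, which gave 4274 of 285961 bin pairs, and they are called ES-only CTCF pairs below. Bin pairs with no CTCF peak in either bin (164498) served as the background at the same locus and distance, and 3602 pairs whose bins both held CTCF regions of all 3 lists (shared CTCF pairs) as a comparison. The pairs were chosen by the authors' CTCF peak calls, so the presence of CTCF is a description here, and contact was measured in other libraries that the choice did not use.

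CTCF is a zinc-finger DNA-binding protein that halts cohesin as it extrudes chromatin, so that pairs of CTCF sites often end up at the bases of loops. Most CTCF sites are shared between cell types, and a minority is bound in some cell types only. 5C reads out ligated fragment ends with a set of forward and reverse primers, here on HindIII-cut chromatin. A count is a contact frequency in a population of cells, not a distance in a single cell.

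The study measured 5C contacts around the pluripotency genes Sox2, Oct4, Nanog and Klf4, of which Sox2 is also used by neural progenitors, around Nestin (an intermediate filament gene of those progenitors), around Olig1-Olig2 (regulators of oligodendrocyte development) and in a gene desert. ES cells were of the male V6.5 line (129SvJae x C57BL/6), expanded on inactivated feeder cells and moved to gelatin, either in 2i/LIF, a serum-free medium with the kinase inhibitors CHIR99021 and PD0325901, or in medium holding serum and LIF. Neural progenitors (NPCs) were taken from whole brains of P1 129SvJae x C57BL/6 mice carrying Sox2-eGFP and grown as neurospheres before adherent plating. Each condition had 2 5C libraries and 1 CTCF ChIP-seq library, all from untreated cells. Cell type and origin cannot be told apart wherever NPCs are set against ES cells. Separate cultures are not named in the labels for the 2 libraries of a condition, and p-values therefore cover the spread between these libraries, which may be technical.

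Libraries held 11784821 to 26533530 counts, the deepest being those of ES cells in serum. The counts are PCR reads without molecular identifiers. They were summed over 16 kb windows centred on the bins and compared relative to the distance trend of each library and locus, so a fold change is a change relative to other contacts of the same span. Of the ES-only CTCF pairs, 3715 passed the filter on low counts, 63 fell under it and 496 had no primer pair in their windows. An interaction score of the authors was available in all 6 libraries for 2950. Neighbouring bins share windows, and the pairs were built from only 205 bins with 211 CTCF regions, so they are not independent of each other. No gene annotation of mm9, the genome build of the files, was used here, and bins are given by position.

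The CTCF regions behind the pairs were weaker than shared ones. Of the 211 regions, 135 were in both ES lists, 50 in the 2i list only and 26 in the serum list only. Their median fold enrichment over local background, the authors' value, was 12.2 in the 2i list and 11.6 in the serum list. The 185 regions of all 3 lists in the loci had medians of 24.7 in 2i, 28.6 in serum and 17.8 in NPCs. The NPC list was also the shortest, with 28860 peaks against 56138 in 2i and 50185 in serum, and its weakest peak among shared regions had a −log10 q of 6.76. An ES-only site is therefore one that was not called in NPCs, and weak NPC binding cannot be told apart from none.

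The pairs were unevenly spread. The Oct4 locus held 2646 of them (61.9%), Nanog 574, Nestin 475, Olig1-Olig2 288, Klf4 147, Sox2 141 and the gene desert 3. Their median distance was 408 kb, against 412 kb for all pairs. At the lower limit of 20 kb the 32 scored pairs had mean scores of 22.8 and 22.9 in 2i, 20.6 and 21.0 in serum, and 19.7 and 19.2 in NPCs, and nearer pairs carry no score in the table used here. Although no bin touched an NPC peak, the wider 16 kb windows of 2789 pairs did, and the 1485 pairs with windows free of NPC peaks (1327 of them tested) are given separately.

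Averaged over all loci, contacts between ES-only CTCF bins were highest in ES cells in 2i, intermediate in serum and lowest in NPCs, but not in every locus. Relative to pairs with no CTCF at the same locus and distance, the mean log2 contact over the distance trend was 0.28 and 0.20 in the 2i libraries, 0.12 and 0.11 in serum, and -0.0085 and -0.046 in NPCs. The groups did not overlap, and NPC contacts lay close to the background. With windows free of NPC peaks, and no-CTCF pairs free of them too, the values were 0.44 and 0.34 in 2i, 0.32 and 0.29 in serum, and 0.10 and 0.038 in NPCs. Shared CTCF pairs had another order, with 0.43 and 0.31 in 2i, 0.13 and 0.15 in serum, and 0.48 and 0.44 in NPCs. Pairs of an ES-only bin with a bin lacking CTCF had smaller values, 0.17 and 0.13 in 2i, 0.083 and 0.083 in serum, and 0.040 and 0.023 in NPCs. By locus, Olig1-Olig2 pairs were higher in serum (0.084 and 0.080) than in 2i (-0.078 and -0.077), with -0.34 and -0.33 in NPCs. Nestin pairs were highest in NPCs (0.56 and 0.59), with 0.41 and 0.51 in 2i and 0.33 and 0.45 in serum. In Nanog the 2i (0.31 and 0.16) and serum (0.25 and 0.28) libraries overlapped, above NPCs (0.0097 and -0.064). These means describe chosen pairs and carry no test.

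**Figure D1:**
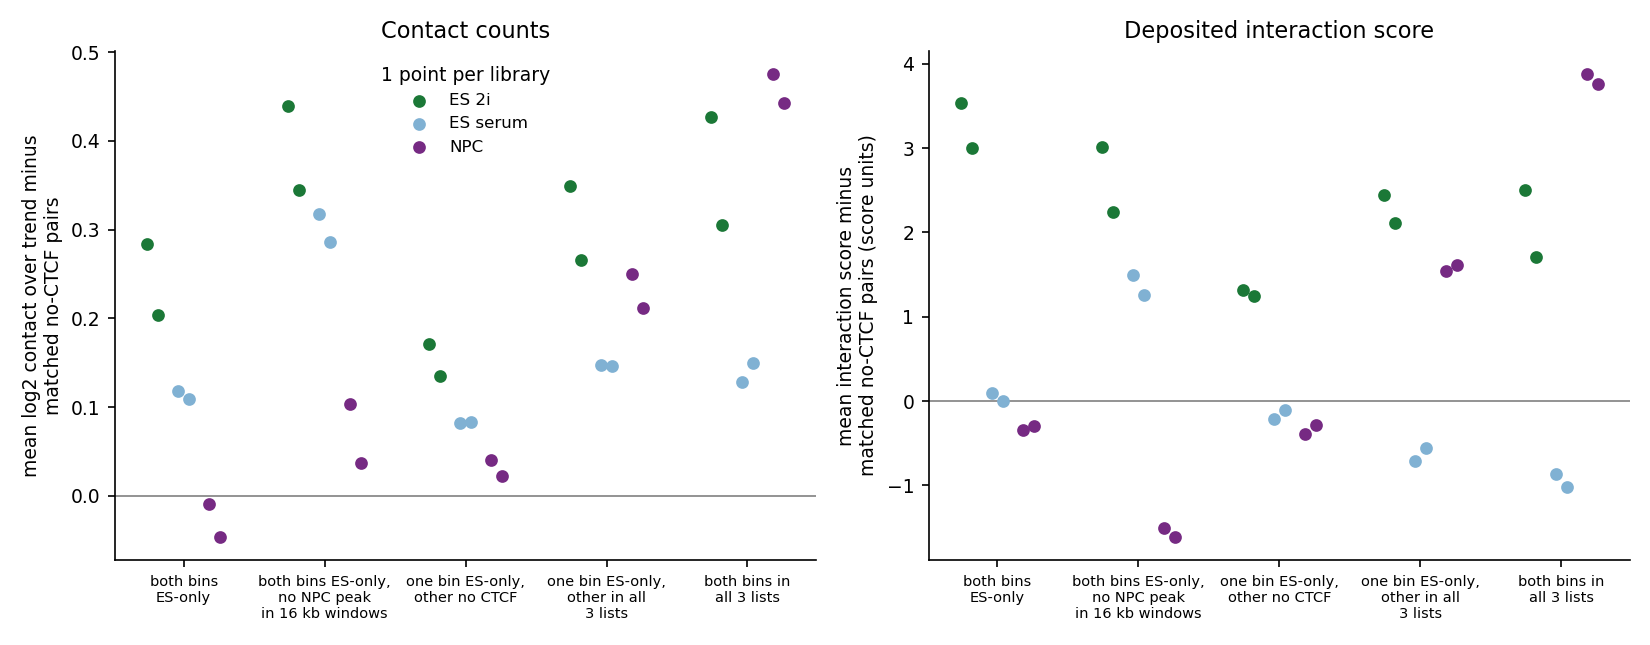
Mean excess of contact over no-CTCF pairs of the same locus and distance, 1 point per library, for 5 kinds of bin pair (x axis). The left panel shows log2 contact over the distance trend, where ES-only CTCF pairs run from 0.28 in 2i to -0.046 in NPCs, and the right panel the deposited interaction score in score units, where they run from 3.54 in 2i to -0.341 in NPCs.

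The first comparison asked how contacts between ES-only CTCF sites differ between NPCs and ES cells in 2i. More of these contacts fell than rose: of 3715 pairs tested, 647 fell (17.4%) and 212 rose (5.71%). Over all 236227 bin pairs tested, 18.1% changed, 8.79% falling and 9.28% rising, so falls were more frequent and rises less frequent among ES-only CTCF pairs than in the background. At the same locus and distance, 7.21% of no-CTCF pairs fell and 8.66% rose. The median log2 fold change was -0.14, against 0.039 for all pairs and 0.15 for shared CTCF pairs, of which 135 of 2653 fell and 299 rose. With windows free of NPC peaks, 263 of 1327 pairs fell (19.8%), 56 rose, and the median was -0.22, where 8.37% of no-CTCF pairs with such windows fell. With a single ES-only bin the shift was smaller: of 41859 pairs of an ES-only bin with a bin lacking CTCF, 12.1% fell and 7.57% rose. Calls are from edgeR's quasi-likelihood test at a Benjamini-Hochberg adjusted p below 0.05. For fits leaving out a library, here and below, the share of all pairs is not given, so they show no difference from the background. Without the first 2i library, 341 pairs fell and 117 rose.

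Against ES cells in serum, falls in NPCs again outnumbered rises. Of the tested pairs, 749 fell (20.2%) and 363 rose (9.77%) in edgeR's test, against 14.6% and 13.3% of all pairs (27.9% in either direction). The median log2 fold change was -0.16, against -0.019 for all pairs. With windows free of NPC peaks, 347 pairs fell (26.1%) and 105 rose, with a median of -0.32, where 15.6% of no-CTCF pairs with such windows fell. Pairs of an ES-only bin with a bin lacking CTCF shifted less: of 41859, 7255 fell (17.3%) and 5035 rose. With windows free of NPC peaks, 4088 of 20047 such pairs fell (20.4%) and 2012 rose. Part of the excess of falls was therefore seen with a single ES-only bin. Shared CTCF pairs went the other way, with 661 rises, 214 falls and a median of 0.27. Both comparisons use the same NPC libraries. Without the first serum library 476 pairs fell and 195 rose, and without the second 444 fell and 175 rose.

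Between the ES media the pairs changed in both directions. In serum against 2i, 543 fell (14.6%) and 443 rose (11.9%), against 9.44% and 11.6% of all pairs in edgeR's test (21.0% in either direction). The median was -0.027 and that of all pairs 0.045. The split depends on the scaling: 679 fell and 290 rose with plain TMM. The numbers were 650 and 337 with a single distance trend for all loci, and 715 and 302 in DESeq2. The shares of all pairs under these scalings are not given, so whether the background moved alike is not shown. With windows free of NPC peaks the numbers were nearly equal, with 189 falls (14.2%) and 183 rises (13.8%). Of no-CTCF pairs with such windows 6.78% fell and 12.7% rose, so falls were still more frequent than in that background. The total of 986 calls was 440 without the first 2i library, 473 without the first serum library and 331 without the second.

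**Figure D2:**
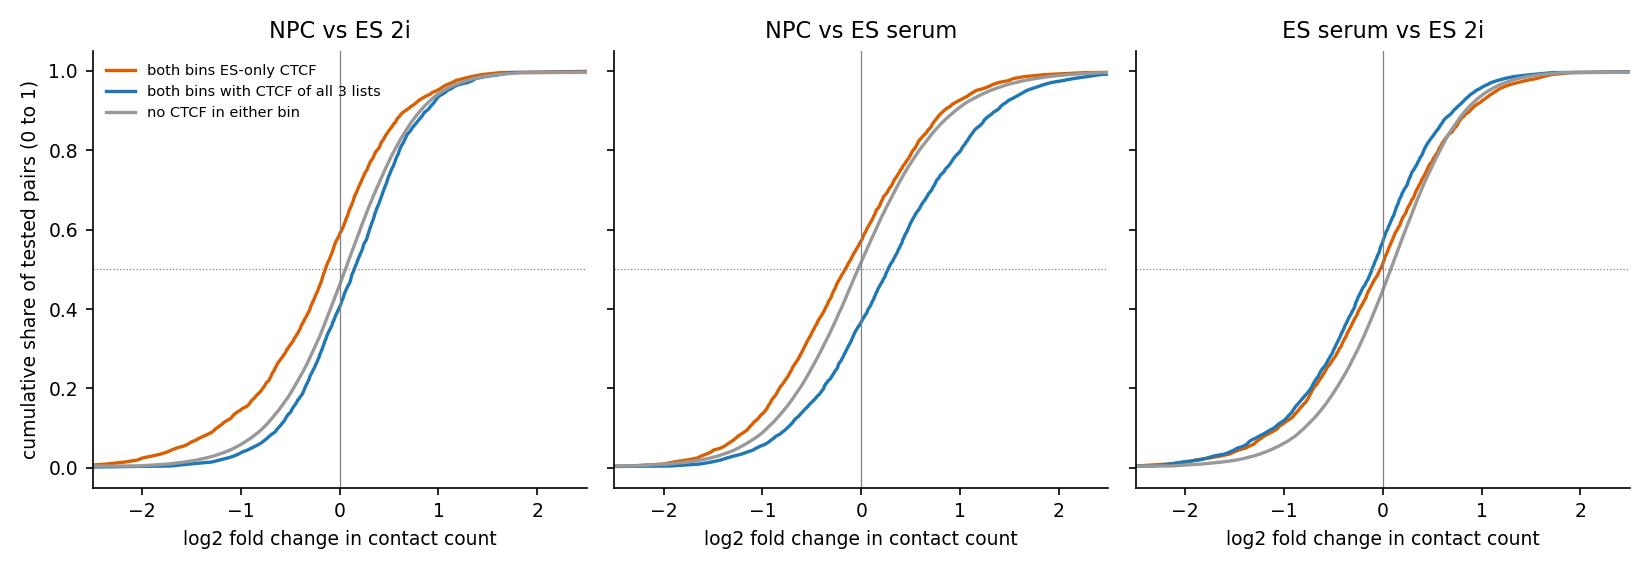
Cumulative share of tested bin pairs (y axis) by log2 fold change in contact count (x axis) in 3 comparisons, for ES-only CTCF pairs, shared CTCF pairs and pairs with no CTCF. In both comparisons with NPCs the ES-only curve lies left of the no-CTCF curve and the shared curve right of it, with medians of -0.14 and 0.15 against 2i and of -0.16 and 0.27 against serum.

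The authors' interaction score rates each bin pair against its local neighbourhood. Its values equal −10 times log2 of their deposited p-value, so a score above 43.2 corresponds to a p below 0.05. In 2i, 123 of 2950 ES-only CTCF pairs passed this level in both libraries (4.17%, against 2.15% of all pairs). In serum 88 did (2.98%, against 1.67%), and in NPCs 41 (1.39%, against 1.82%). Among matched no-CTCF pairs the shares were 1.95%, 2.02% and 1.74%. With windows free of NPC peaks, 40 of 1063 pairs passed in 2i, 34 in serum and 6 in NPCs. Shared CTCF pairs gave 79, 41 and 90 of 2149.

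Mean scores lay above those of matched no-CTCF pairs in 2i and near them in serum and NPCs. The excess was 3.54 and 3.01 in the 2i libraries, 0.0974 and 0.00228 in serum, and -0.341 and -0.298 in NPCs. The means were carried by a tail of high scores: the median excess was -0.698 and -1.74 in the 2i libraries, and 47.9% and 45.2% of the pairs were above their matched value there, against 37.3% to 38.8% in serum and NPCs. The serum and NPC means lie near 0, and their sign changes between settings. Most of the 2i excess came from the Oct4 locus, where it was 5.70 and 5.22, and outside Oct4 the group mean was 0.647. The Sox2 locus was the one with a mean excess in all 4 ES libraries, of 8.52 and 6.10 in 2i and 7.54 and 5.88 in serum, with -1.93 and -0.559 in NPCs. Medians in Sox2 were 1.05 and -2.41 in 2i and 0.612 and -0.357 in serum.

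Few scores changed by limma's test. On simulated data this test recovered 28 of 50 shifts of -40 but 1 of 50 of 40. Simulated scores could fall below 0, which real scores cannot, so this difference may not hold for the real scores. Falls and rises are each given with their backgrounds. In NPCs against 2i, 210 of 2950 pairs changed (7.12%, against 3.99% of all pairs). Of them 158 fell (5.36%, background 1.97%) and 52 rose (1.76%, background 2.02%). In NPCs against serum 291 changed (9.86%), near the background of 9.77%. Of them 176 fell (5.97%, background 5.07%) and 115 rose (3.90%, background 4.70%). In serum against 2i 300 changed (10.2%, background 7.57%). Of them 201 fell (6.81%, background 3.74%) and 99 rose (3.36%, background 3.83%). These calls rest on every library being present: without any 1 library none was left, except for 69 in NPCs against serum without the second NPC library, and none was left with the libraries of the compared groups alone. A fit without 1 library leaves its group with a single one, whose spread is then taken from the remaining groups.

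Loci differed widely, and Sox2 stood at one end. In the Sox2 locus all 141 pairs were tested, and in NPCs against 2i 83 of them fell (58.9%) and 16 rose, where 13.8% of all Sox2 pairs fell. Mean contact over matched no-CTCF pairs was 1.24 and 1.12 on the log2 scale in 2i, 0.70 and 0.64 in serum, and 0.35 and 0.27 in NPCs. The order 2i, serum, NPC held without overlap. In serum against 2i 65 pairs fell (46.1%, background 9.11%) and 6 rose, and in NPCs against serum 66 fell (46.8%, background 17.7%) and 20 rose.

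In Klf4, falls outnumbered rises in serum and in NPCs relative to 2i. Of 147 pairs, 49 fell (33.3%, against 9.30% of all Klf4 pairs) and 8 rose in NPCs against 2i, and 61 fell (41.5%, against 10.2%) and 5 rose in serum against 2i. In NPCs against serum 27 fell (18.4%, against 8.85%) and 23 rose (15.6%, against 8.44%). Their mean log2 contact over matched pairs was 1.42 and 1.12 in 2i, 0.74 and 0.68 in serum, and 0.72 and 0.64 in NPCs, so the serum and NPC libraries overlapped.

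In Nanog, Oct4 and Olig1-Olig2 a minority of pairs was called, and among them falls in NPCs outnumbered rises against both ES media. Backgrounds in parentheses are the shares of all pairs of the locus. In Nanog 20.2% of 539 pairs fell (12.6%) and 5.57% rose (10.5%) against 2i, and 27.1% fell (16.8%) and 8.16% rose (12.3%) against serum. In Oct4 15.3% of 2183 fell (7.33%) and 4.31% rose (6.61%) against 2i, and 18.0% fell (13.6%) and 9.07% rose (12.3%) against serum. In Olig1-Olig2 15.5% of 258 fell (9.07%) and 2.71% rose (11.6%) against 2i, and 28.3% fell (19.0%) and 4.26% rose (16.9%) against serum. In Nestin rises outnumbered falls: of 444 pairs, 12.8% rose (7.00%) and 6.98% fell (6.13%) against 2i, and 15.1% rose (13.2%) and 9.68% fell (13.7%) against serum.

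In serum against 2i, rises outnumbered falls in Olig1-Olig2, Nestin and Nanog, unlike in Sox2, Klf4 and Oct4. In Olig1-Olig2 15.5% rose (13.1%) and 5.43% fell (9.31%). In Nestin 17.1% rose (11.1%) and 12.2% fell (9.78%), and in Nanog 17.1% rose (11.2%) and 14.1% fell (8.69%). In Oct4 10.3% rose (11.8%) and 12.5% fell (9.36%). The gene desert held only 3 pairs, and edgeR called no change in them in any of the 3 comparisons. These differences between loci were not tested.

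**Figure D3:**
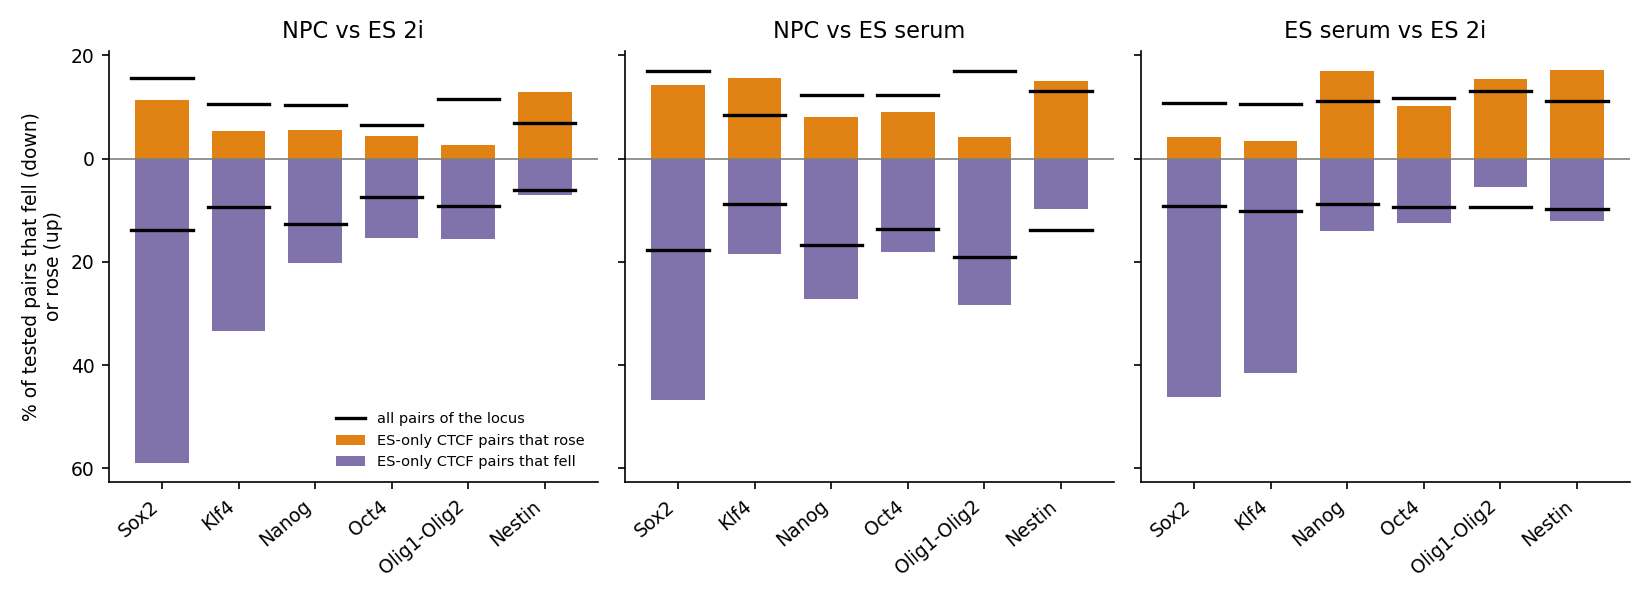
Percent of tested ES-only CTCF pairs that rose (upward bars) or fell (downward bars) by edgeR's test in 6 loci and 3 comparisons, with black lines for all bin pairs of the locus. Sox2 has the tallest downward bar, 58.9% in NPCs against 2i, and Nestin has more rises than falls in both comparisons with NPCs.

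Falls were spread over distances. In NPCs against 2i, 185 of 519 pairs nearer than 100 kb fell (35.6%, against 15.5% of all pairs at that span). From 100 to under 300 kb 21.7% fell (background 11.9%), from 300 to under 600 kb 17.7% (background 8.76%), and at 600 kb or more 6.11% (background 3.05%). At each span the share of ES-only CTCF pairs that fell was above that of all pairs.

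Pairs of sites in both ES lists fell more often than the background, and pairs of 2i-only sites about as often as it. Pairs of sites in both ES lists had 338 falls and 81 rises among 1615 in NPCs against 2i (20.9% fell and 5.02% rose, against 8.79% and 9.28% of all pairs). Pairs of 2i-only sites had 11 falls (7.38%) and 14 rises (9.40%) among 149, near the background, and pairs of serum-only sites 6 falls and 1 rise among 34. In serum against 2i, 26 pairs of 2i-only sites rose (17.4%, against 11.6% of all pairs) and 14 fell (9.40%, against 9.44%), and 8 pairs of serum-only sites rose and 5 fell. By peak strength, the median log2 change in NPCs against 2i was -0.21 where both bins had a peak above the median fold enrichment, -0.17 where one had, and -0.020 where neither had. The shares that fell were 18.8%, 16.7% and 17.6%. Scores did not follow that order: the mean excess was 3.89 and 2.51 in 2i and 0.289 and 0.0841 in NPCs where both peaks were above the median, and 3.95 and 4.12 in 2i and -0.698 and -0.242 in NPCs where neither was.

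The authors' deposited table sorts some bin pairs into looping classes made from these same libraries, so the classes are no independent evidence of direction. Of the ES-only CTCF pairs, 104 were in a looping class (2.43%), against 2.53% of shared CTCF pairs and 1.13% of no-CTCF pairs. Their classes differed from those of shared pairs. The class of loops in both 2i and serum (es_2i) held 32 ES-only pairs (0.749%), 3 shared pairs (0.0833%) and 0.0875% of no-CTCF pairs. The class named 2i_only held 18 ES-only and 2 shared pairs, and the class of loops in every cell type held 30 and 46.

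Of the 32 pairs looped in both ES media, 15 lay in Oct4, 11 in Sox2, 3 in Klf4 and 3 in Nanog, and they used 33 bins. By edgeR's count test 26 fell and none rose in NPCs against 2i, with a median log2 fold change of -1.83, and 24 fell and none rose against serum, with a median of -1.11. Of all tested pairs of the class, 76.1% fell against 2i (median -1.56) and 71.0% against serum (median -0.93). Of the 15 tested pairs of the class named 2i_only, 14 fell in NPCs and 13 in serum, both against 2i, where 76.0% and 66.8% of all pairs of that class fell. The 30 pairs looped in every cell type had 8 rises and 6 falls in NPCs against 2i and a median of 0.25, where 19.6% of all pairs of the class rose and 4.83% fell. The NPC-only class held 6 ES-only pairs, of which 4 rose, where 80.2% of the class did.

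The single pairs described next were picked for high contact or large change, so their values are not typical. Over all tested ES-only CTCF pairs the median log2 fold change in NPCs against 2i was -0.14. In the Sox2 locus the bins chr3:34564880-34568879 and chr3:34648880-34652879, 84 kb apart, belong to the class of loops in both ES media and hold CTCF sites of the serum list only. Their windows held 5721 and 5605 counts in 2i, 6806 and 5448 in serum, and 1597 and 1499 in NPCs. Per distance trend this was 14.8 and 10.7 times the trend in 2i, 6.75 and 5.18 times in serum, and 3.61 and 2.71 times in NPCs. The 3 groups did not overlap. Contact fell by 2.01 (SE 0.21) on the log2 scale in NPCs against 2i (edgeR adjusted p = 7.4e-06). It fell by 1.10 (SE 0.20) in serum against 2i (edgeR adjusted p = 0.0013), a call lost without the second serum library (edgeR adjusted p = 0.059). Scores were 95.7 and 98.8 in 2i, 96.4 and 88.3 in serum, and 21.7 and 21.2 in NPCs. The 16 kb window around the first bin also holds a region of both ES lists at chr3:34563228-34563474. The fall in NPCs against serum, -0.92 (edgeR adjusted p = 0.0028), was not called without the first serum library, where it was -0.71 (edgeR adjusted p = 0.076).

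The largest fall in Sox2 joined chr3:34532880-34536879 and chr3:34656880-34660879, 124 kb apart, with sites in both ES lists. At least one of its 16 kb windows holds an NPC peak. The contact was 3.17 and 2.43 times the trend in 2i, 1.77 and 1.93 times in serum, and 0.375 and 0.336 times in NPCs. NPC contact was below the trend in both libraries while both ES media were above it. Contact fell by 2.98 (SE 0.21) on the log2 scale against 2i (edgeR adjusted p = 4.2e-07) and by 2.38 (SE 0.21) against serum (edgeR adjusted p = 7.7e-07). Its scores were low in all 6 libraries, with 8.92 and 9.86 in 2i, 6.91 and 4.19 in serum, and 0.0398 and 0.0657 in NPCs (limma adjusted p = 0.048 for NPCs against 2i).

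The first of those bins also took part in the largest Sox2 rise. Together with chr3:34344880-34348879, 188 kb away, it had contacts of 1.74 and 2.40 times the trend in 2i, 2.34 and 2.54 times in serum, and 8.51 and 9.63 times in NPCs. The NPC libraries stood apart from the 4 ES libraries, and the pair is in the NPC-only class although neither bin holds an NPC peak (at least one of the wider windows does). The rise was 2.13 (SE 0.19) on the log2 scale against 2i (edgeR adjusted p = 2e-06). The bin at chr3:34344880-34348879 also gained contact with chr3:34560880-34564879, 216 kb away, with windows free of NPC peaks. That contact was 1.87 and 2.01 times the trend in 2i, 1.65 and 2.03 times in serum, and 8.77 and 7.73 times in NPCs, a rise of 2.16 (SE 0.18) on the log2 scale against serum (edgeR adjusted p = 4.2e-07).

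**Figure D4:**
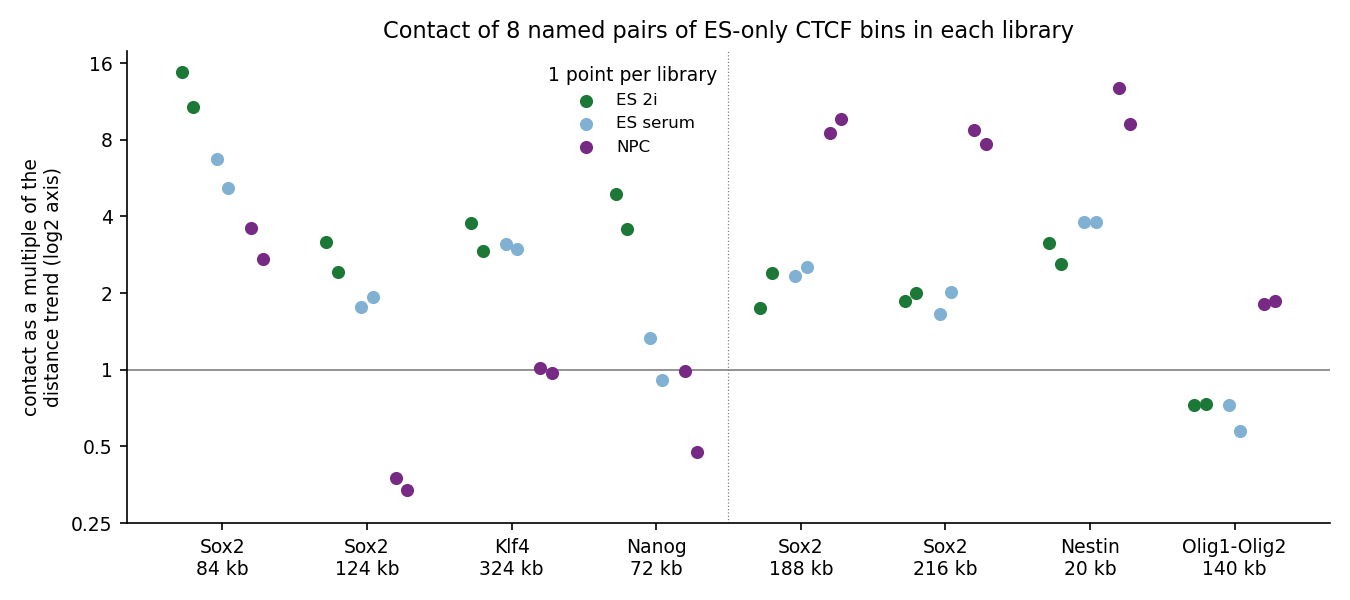
Contact of 8 named pairs of ES-only CTCF bins as a multiple of the distance trend (y axis, log2), 1 point per library, with falls in NPCs against ES cells left of the dotted line and rises right of it. The Sox2 pair 124 kb apart drops to 0.375 and 0.336 times the trend in NPCs, and the Sox2 pair 188 kb apart reaches 8.51 and 9.63 times.

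In Klf4, chr4:55147979-55151978 and chr4:55471979-55475978, 324 kb apart and in the class of loops in both ES media, had contacts of 3.76 and 2.93 times the trend in 2i, 3.13 and 2.99 times in serum, and 1.02 and 0.973 times in NPCs. Both ES media were about level and NPCs were at the trend. On the log2 scale the pair fell by 1.75 (SE 0.22) against 2i (edgeR adjusted p = 5.6e-05) and by 1.63 (SE 0.22) against serum (edgeR adjusted p = 6e-05). Its scores fell from 97.2 and 89.9 in 2i and 54.9 and 45.1 in serum to 0.439 and 0.666 in NPCs.

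In Nanog, chr6:122641360-122645359 and chr6:122713360-122717359, 72 kb apart, had 2280 and 2231 counts in 2i, 1275 and 905 in serum, and 238 and 140 in NPCs. Contact was 4.90 and 3.57 times the trend in 2i, 1.34 and 0.910 times in serum, and 0.988 and 0.475 times in NPCs. The 2i libraries stood apart, and serum and NPCs overlapped. Relative to 2i, contact fell by 2.55 (SE 0.29) on the log2 scale in NPCs (edgeR adjusted p = 1.7e-05) and by 1.91 (SE 0.27) in serum (edgeR adjusted p = 0.00019). A single primer pair gave 94.3% of these counts.

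In Nestin the ES-only bins chr3:88017088-88021087 and chr3:88037088-88041087, 20 kb apart, gained contact. Further ES-only bins, chr3:88021088-88025087 and chr3:88025088-88029087, lie between them. The windows of the gaining pair held 5602 and 4977 counts in 2i, 10886 and 10619 in serum, and 22886 and 18300 in NPCs. This was 3.14 and 2.59, 3.82 and 3.79, and 12.8 and 9.25 times the trend. All groups were separate, with NPCs highest. NPC contact was higher by 1.94 (SE 0.19) on the log2 scale against 2i (edgeR adjusted p = 4e-06) and by 1.53 (SE 0.18) against serum (edgeR adjusted p = 1.7e-05), and at least one of the windows holds an NPC peak. Another Nestin pair rose in serum only: chr3:87637088-87641087 and chr3:88037088-88041087, 400 kb apart and in the authors' class named es_only, had contacts of 0.784 and 0.944 times the trend in 2i, 2.92 and 2.52 times in serum, and 1.37 and 0.758 times in NPCs. Serum exceeded 2i by 1.65 (SE 0.30) on the log2 scale (edgeR adjusted p = 0.0013).

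In Olig1-Olig2 the largest rise against 2i joined chr16:91074613-91078612 and chr16:91214613-91218612, 140 kb apart. The pair rests on 2 primer pairs, and at least one of its windows holds an NPC peak. Contact was 0.729 and 0.732 times the trend in 2i, 0.728 and 0.576 times in serum, and 1.81 and 1.86 times in NPCs. NPCs were above the trend and all 4 ES libraries below it. The rise against 2i was 1.33 (SE 0.20) on the log2 scale (edgeR adjusted p = 0.00025), and in 8 kb windows 0.84 (edgeR adjusted p = 0.086).

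Several extreme Oct4 values rested on few fragments or counts. The largest Oct4 fall in NPCs against 2i, between chr17:35622392-35626391 and chr17:36382392-36386391, 760 kb apart, had 2 and 7 counts in NPCs, with 102 and 77 in 2i and 45 and 26 in serum (log2 fold change -4.02, SE 0.67, edgeR adjusted p = 0.00055). The largest rise, between chr17:34942392-34946391 and chr17:35918392-35922391, 976 kb apart, had 324 and 152 counts in NPCs, with 12 and 53 in 2i and 141 and 139 in serum (log2 fold change 3.06, SE 0.45, edgeR adjusted p = 0.00019). One of the 2 Oct4 pairs with the highest mean contact over the trend, chr17:34942392-34946391 with chr17:35902392-35906391, took 96.3% of its counts from 1 primer pair and reached 93.2 and 154 times the trend in serum against 7.56 and 11.5 times in 2i. Its scores stayed between 136 and 183 in all 6 libraries, and the authors class it as looped in every cell type. Each of these Oct4 pairs has an NPC peak in at least one of its windows.

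Counts and scores could also disagree in direction. In Sox2, chr3:34636880-34640879 and chr3:34656880-34660879, 20 kb apart, fell in serum against 2i by 2.20 on the log2 scale (SE 0.17, edgeR adjusted p = 3.6e-06), from 1.56 and 1.55 times the trend to 0.340 and 0.335 times. The scores were 35.9 and 36.2 in 2i and 55.4 and 60.7 in serum, a difference that did not pass limma's test (adjusted p = 0.09). One primer pair gave 72.3% of the counts.

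Seen from each bin, bins with more falls than rises outnumbered the opposite kind, and many bins had both. Such counts are not given for other bins, so they are no trait particular to ES-only bins. Each pair counts in both of its bins, and neighbouring bins share windows. Over all bin pairs tested, 8.79% fell and 9.28% rose in NPCs against 2i, so a bin with many tested pairs readily holds a call in either direction. Of 194 bins with at least 10 tested pairs, 134 had more falls than rises in NPCs against 2i and 44 more rises than falls, while 164 had at least 1 fall, 110 at least 1 rise and 86 both. The median log2 change per bin ran from -2.18 to 0.91. Against serum, 125 bins had more falls and 53 more rises. In serum against 2i the numbers were 100 and 84. The bins named next were chosen after their values were seen.

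In Sox2, 15 of 18 bins had more falls than rises in NPCs against 2i. The bin chr3:34656880-34660879 lost contact with 13 of its 14 tested partners and gained none, with a median of -2.18. Of the ES-only bins at the lowest coordinates, chr3:34288880-34292879 had 4 rises and no fall among 17 (median 0.22). A further one, chr3:34344880-34348879, had 7 rises and 1 fall among 16 (median 0.18). The bin chr3:34328880-34332879, which lies between these, had 4 rises and 4 falls among 16 (median -0.31). The bin chr3:34532880-34536879, between those bins and chr3:34656880-34660879, had 10 falls and 4 rises.

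**Figure D5:**
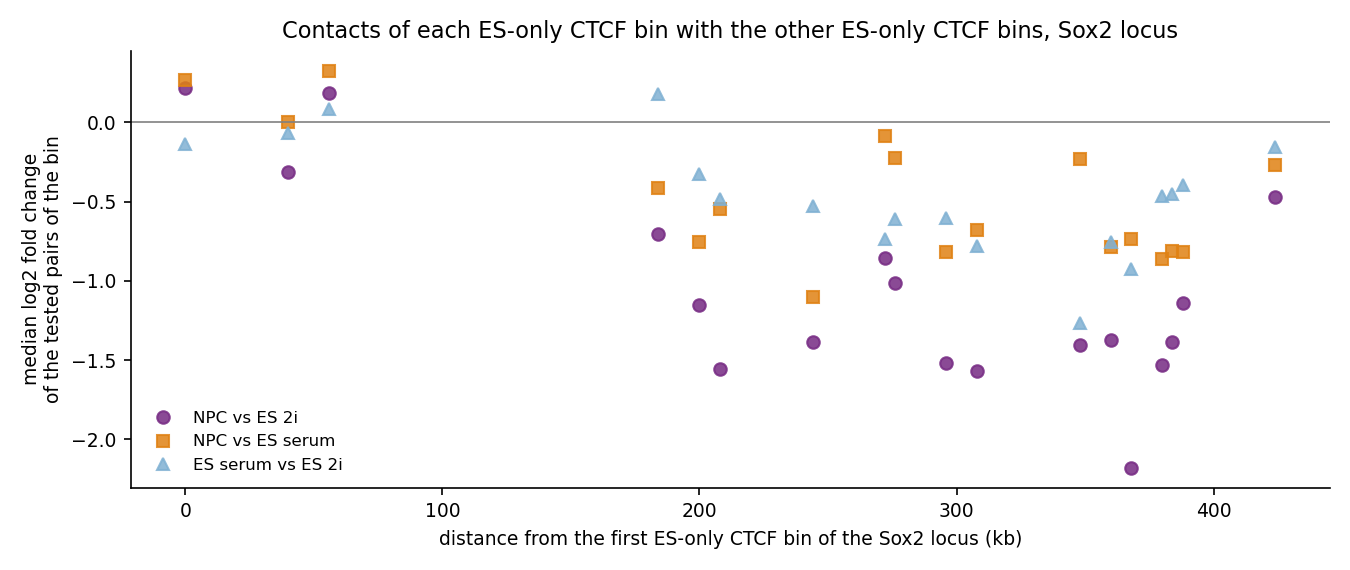
Median log2 fold change of the tested pairs of each of the 18 ES-only CTCF bins in the Sox2 locus (y axis) by distance from the first of these bins in kb (x axis), in 3 comparisons. In NPCs against 2i the medians run from 0.22 at the first bin to -2.18, and 16 of 18 are below 0.

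In Klf4 the bin chr4:55487979-55491978 had 13 falls and no rise among 16 in NPCs against 2i (median -1.60) and 14 falls and no rise in serum against 2i (median -1.39), with 1 fall in NPCs against serum. In Oct4 the bin chr17:35622392-35626391 had 35 falls and no rise among 57 in NPCs against 2i (median -1.52), and its neighbours within 8 kb, which share its windows, had similar values. In Nestin, gains sat at a group of bins: chr3:88025088-88029087 had 13 rises and no fall among 27 (median 0.91), and chr3:88037088-88041087 had 14 rises and no fall among 28 (median 0.68). The Nestin bin chr3:88277088-88281087 stood out for the media, with 22 falls and no rise among 29 in serum against 2i (median -1.75) and 15 rises and no fall in NPCs against serum (median 1.25).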

How the data were processed

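5C counts per primer pair were deposited by the authors as raw read counts, with Bowtie and mm9 named in the submitters' processing notes without a version. The interaction score and its p-value per pair of 4 kb bins are the authors' deposited values. MACS2 made the authors' CTCF peak lists (mm9, per the submitters' processing notes), each from a single library of a condition, and file names speak of downsampled reads. The deposited −log10 q and the fold enrichment, which is a ratio to local background, only describe or filter peaks within a list. The untreated 5C libraries reuse raw data of earlier samples, per the labels. A further 17 per-sample columns and the siRNA libraries were not used.

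Peaks of the 3 lists were merged where they overlapped. Within a locus, counts of each forward-reverse primer combination were added up in pairs of 16 kb windows at 4 kb steps, which is the window and step in the labels, each fragment placed by its midpoint. All 236227 pairs of all kinds that passed filterByExpr entered 1 fit in edgeR 4.0.16 (quasi-likelihood test, R 4.3.3, common biological coefficient of variation 0.202), with a loess offset (span 0.5, log count plus 0.5 on log distance) per library and locus. Scores of 191831 pairs entered limma 3.58.1 with a trend. P-values were adjusted by Benjamini-Hochberg over all pairs tested, with a threshold of 0.05. Matched values are means over no-CTCF pairs of the same locus and distance in 4 kb steps. The 2 libraries of each group differed beyond counting noise (chi-square divided by its degrees of freedom 14.5 to 17.4 over overlapping windows). Named pairs were, per locus, those with the highest contact over the trend and, per comparison, those with the largest rise and fall past the threshold in separate libraries, plus the 3 highest scoring pairs of an ES looping class. Some of these pairs are not described. The steps were tested on simulated data with changes set in NPCs and read against 2i. The count test recovered 5 of 50 log2 changes of 1 and 5 of 50 of -1. At 2 and -2 it recovered 50 and 43 of 50. The score test recovered 1 of 50 shifts of 40 and 28 of 50 of -40, and 15 and 35 of 50 at 80 and -80. In this simulation log2 count changes of 1 were mostly missed, and score falls were found more often than rises. It set 50 changes of each size among 235346 pairs for counts and 191831 for scores. In the data, 18.1% of all pairs were called by count in NPCs against 2i. The recovered shares therefore do not give the sensitivity in the data. Simulated scores could also fall below 0, which the deposited scores cannot. Python 3.11.15, numpy 2.4.6, pandas 2.3.3 and DESeq2 1.42.0 (an alternative) were also used.

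The pairs, splits and tests were chosen with earlier results of these data known. The alternatives that keep windows free of NPC peaks, leave out Oct4 or set a mean count of at least 10 were chosen after seeing the data. Counting precision follows the count behind each value, and the tests pool the spread between libraries over the 3 groups of 2, so a group left with 1 library is assumed to vary like the others.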

Additional observations from a re-analysis of the deposited data

How the results depend on the processing

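For the count test, in NPCs against 2i, NPCs against serum and serum against 2i (859, 1112 and 986 calls), plain TMM, a single distance trend, DESeq2, no count filter, 1 bin pair per site pair, a mean count of at least 10 and fits of the compared groups alone kept each total within 1.5 times. Totals were 295, 536 and 473 in 8 kb windows, where fewer pairs could be tested. Smaller sets gave smaller totals: 399, 505 and 424 with ES peaks of −log10 q of 20 or more, 448, 561 and 459 with regions in both ES lists, 319, 452 and 372 with windows free of NPC peaks, and 430, 520 and 489 without Oct4. Leaving out 1 library gave 458 to 788, 619 to 1097 and 331 to 1135. For the score test (210, 291 and 300 calls), the same 4 sets gave 101, 116 and 141, then 109, 125 and 153, then 78, 134 and 97, and then 93, 141 and 115. Leaving out 1 library gave 0 to 0, 0 to 69 and 0 to 0 calls, and fits of the compared groups alone 0, 0 and 0; the cause was not tested. With the replicate number as a block the count test called 983, 1260 and 1132 pairs and the score test 0, 98 and 0. Deviations of same-numbered libraries had low correlations of 0.0311 to 0.0933 in counts over 236227 pairs. As these pairs share windows and the labels leave pairing open, the values do not settle whether the numbers pair the libraries.

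The mean score excess was 3.27 (SD 0.377, 2 libraries) in 2i, 0.0499 (SD 0.0673) in serum and -0.319 (SD 0.0306) in NPCs. It was 2.40, -0.856 and 0.00257 with medians, 4.45, -0.146 and 0.548 with stronger ES peaks, 5.05, -0.116 and 0.0324 with regions in both ES lists, and 2.51, 1.36 and -2.32 with windows free of NPC peaks, here against no-CTCF pairs whatever their windows hold. With 1 bin pair per site pair serum had -0.243 and NPCs -0.116, and without Oct4 2i had 0.647 and NPCs -1.08. The serum and NPC signs therefore turn within this range; the cause was not tested. Leaving out 1 library gave 3.01 to 3.54, 0.00228 to 0.0974 and -0.341 to -0.298.

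Of 986 checks on single pairs, 866 kept direction and side of the threshold, 78 lost the call, 40 gained it and 2 reversed, both in 8 kb windows: Olig1-Olig2 bins at 91074613 and 91550613 had -0.62 in NPCs against serum (edgeR adjusted p = 0.28, main 0.66), and those at 90674613 and 91630613 had -0.52 in serum against 2i (edgeR adjusted p = 0.57, main 1.67). Of the tested pairs, 511 rest on 1 primer pair, which limits their precision.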
